A study of Mus musculus with 2 samples.

Results

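The 7 miRNA genes described here are the 5 genes of the Mir200 family (Mir200b, Mir200a, Mir429, Mir200c and Mir141) and the skin genes Mir203 and Mir205, 7 of 1973 miRNA genes counted. They were chosen by name, as genes known from epithelia, and each was found by its Ensembl identifier in both count tables. The source was total RNA from the limbs of B6NCrl mouse embryos at embryonic day 13.5, pooled over male and female embryos, and the libraries held only short RNA. There is 1 group of healthy tissue, with no control or treated group, with 2 biological replicates that carry the same donor label, so the values describe 1 tissue and its spread over 2 libraries. Replicate 1 held 12407140 reads, of which 5927321 were sense counts in miRNA genes, and replicate 2 held 12657170 reads with 6003632 such counts.

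A miRNA is cut from a hairpin in a longer transcript, and its seed (bases 2 to 8) pairs with sites in target mRNAs. The Mir200 family is made in epithelia and represses Zeb1 and Zeb2, which encode transcription factors that shut off E-cadherin and, in a loop, the Mir200 genes themselves. In mouse skin, Mir203 restrains the proliferation of differentiating keratinocytes and targets the p63 transcript, and Mir205 supports the growth of skin progenitors. In a limb at this stage the covering ectoderm is the main epithelium, around a mass of mesenchyme, cartilage, muscle, vessels and nerve.

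The mature sequences are shown because they set which genes of the family can share targets. The arm known as the main product is given for each gene, 5′ to 3′ from RefSeq (GRCm38.p6), with the seed in capitals. All 7 genes had an entry.
mmu-miR-200b-3p: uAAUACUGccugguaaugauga
mmu-miR-200c-3p: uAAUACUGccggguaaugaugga
mmu-miR-429-3p: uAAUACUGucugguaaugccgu
mmu-miR-200a-3p: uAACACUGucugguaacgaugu
mmu-miR-141-3p: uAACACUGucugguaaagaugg
mmu-miR-203-3p: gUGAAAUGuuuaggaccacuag
mmu-miR-205-5p: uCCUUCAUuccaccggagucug

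The family falls into a pair of seed groups that differ by 1 base. Mir-200b-3p, miR-200c-3p and miR-429-3p carry AAUACUG, and miR-200a-3p and miR-141-3p carry AACACUG. Counted from 1 at the 5′ end of miR-200b-3p, the change to miR-200a-3p in the seed is U4C. Within each seed group, some genes on different chromosomes differ at few positions. MiR-200c-3p differs from miR-200b-3p at U11G and A22G over 22 positions, and miR-141-3p differs from miR-200a-3p at C17A and U22G. The seeds of miR-203-3p (UGAAAUG) and miR-205-5p (CCUUCAU) are unlike these. Among 1738 mature mouse sequences in the RefSeq table, no other miRNA carries any of these 4 seeds, so sums over the genes below hold every listed source of each seed.

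The genes lie at 4 places in the genome (mm10). Mir200b (chr4:156055681-156055750), Mir200a (chr4:156054896-156054985) and Mir429 (chr4:156053905-156053987) follow each other on the minus strand within 1846 bases, with gaps of 695 and 908 bases. All 3 lie in introns of Ttll10. They also lie in the noncoding gene Gm13648, where Mir429 is inside an annotated exon and the other genes are intronic. Mir200c (chr6:124718322-124718390) and Mir141 (chr6:124717914-124717985), also on the minus strand, are 336 bases apart in an intron of the noncoding gene Gm15884, between Phb2 and Ptpn6. The Mir141 hairpin also overlaps an annotated exon of the unclassified transcript Gm29008. Mir203 (chr12:112130880-112130955, plus strand) overlaps no other annotated gene, and the nearest coding genes are Aspg, 3321 bases away on one side, and Kif26a, 15253 bases away on the other. Mir205 (chr1:193507463-193507530, minus strand) lies inside an annotated exon of the noncoding gene 4631405K08Rik, far from coding genes, with Camk1g 137165 and Plxna2 1110688 bases away.

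No long copy of the 7 genes was found in the sequences searched. Multimapping reads were kept out of all genes, so a hairpin with a copy would be undercounted. They were 30.8% of reads in replicate 1 and 29.5% in replicate 2. Ranks, CPM and shares of sense counts below are thus among uniquely mapped reads, and may be raised where other miRNA genes lost reads. How far was not tested. The longest stretch shared with any other of 1005 RefSeq hairpins was 17 bases, between Mir200a and Mir141, and it ranged from 11 to 17 bases over the 7 genes. In 141767 GENCODE transcripts, each main arm was found in its own hairpin and, for Mir429, Mir141 and Mir205, in the overlapping transcripts named above, and nowhere else. The genome outside these transcripts was not searched. Each count covers a whole hairpin and does not say which arm was read. Levels are in CPM, the sense counts of a gene scaled to the sense counts of all miRNA genes in the library, and since a read is 1 short product they are not scaled by length. How well each sequence enters a library was not tested, so an order of genes is an order of counted reads.

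All 7 genes were detected. Each had at least 10 sense counts in each library, the limit for calling a gene detected, which 18.9% of all 1973 genes reached. Of the 1973, 1259 had 0 counts in both libraries. Of the 7, 4 had at least 1000 CPM in each library (Mir203, Mir205, Mir429 and Mir200c), a level that 4.76% of all genes reached. The median of mean CPM was 1478 over the 7 genes and 106 over the 372 detected genes. Together the 7 genes held 119893 counts in replicate 1 and 141588 in replicate 2, or 2.02% (exact 95% interval 2.01 to 2.03) and 2.36% (2.35 to 2.37) of sense counts. The mean was 2.19% ± 0.24 (SD, n = 2), and 1.04% when all reads of the library, unmapped and multimapping ones included, were the base. In bulk tissue, fewer cells of a type and less RNA per cell cannot be told apart, so these shares do not give the amount of ectoderm.

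Mir203 and Mir205, the skin genes, were the most abundant of the 7 and together made up 69.9% of their counts. Mir203 had 47249 counts, or 7971 CPM (exact 95% interval 7900 to 8043), in replicate 1 and 52854 counts, or 8804 CPM (8729 to 8879), in replicate 2. Its mean of 8388 ± 589 CPM (SD, n = 2) placed it at rank 25 of all genes. Mir205 had 37159 counts, or 6269 CPM, in replicate 1 and 45432 counts, or 7567 CPM, in replicate 2, a mean of 6918 ± 918 CPM (SD, n = 2) at rank 30. Both values of Mir203 lay above both of Mir205. Mir203 was 1.27-fold above Mir205 in replicate 1 and 1.16-fold in replicate 2, a log2 ratio of 0.28 ± 0.09 (SD, n = 2).

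**Figure D1:**
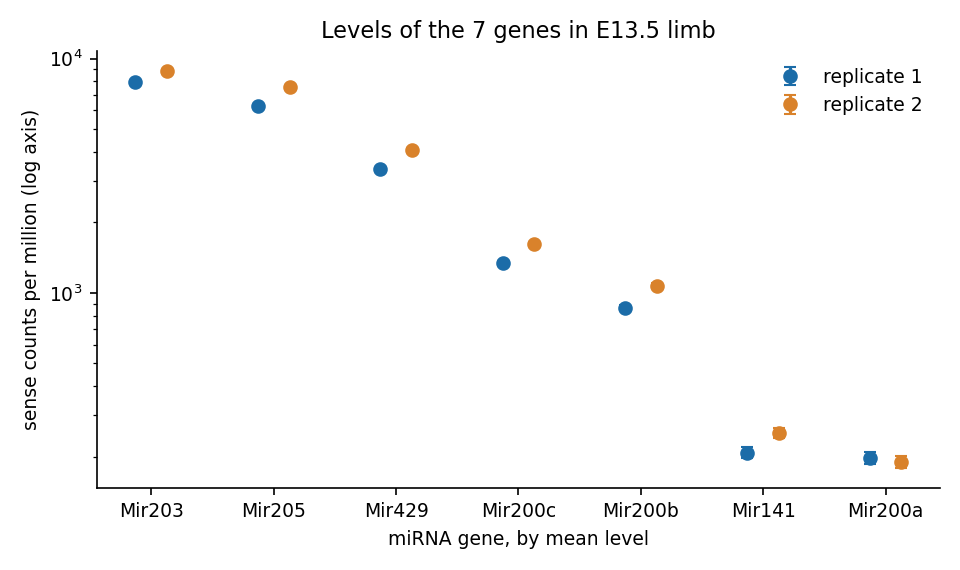
Sense CPM of each gene in each library on a log axis, with exact 95% intervals for counting error, which are mostly smaller than the points. Mir203 is highest, at 7971 and 8804 CPM, and in 6 of the 7 genes replicate 2 lies above replicate 1, Mir200a being the exception.

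The 5 Mir200 genes together held 0.599% of sense counts in replicate 1 and 0.721% in replicate 2, a mean of 0.660% ± 0.087 (SD, n = 2). Mir429 led the family and made up 56.5% ± 0.1 of its counts. It had 20021 counts in replicate 1 (3378 CPM) and 24504 in replicate 2 (4082 CPM), a mean of 3730 ± 498 CPM at rank 50. Mir200c came next, with 7935 counts in replicate 1 (1339 CPM) and 9707 in replicate 2 (1617 CPM), a mean of 1478 ± 197 CPM at rank 83. Mir200b had 5126 counts in replicate 1 (865 CPM) and 6441 in replicate 2 (1073 CPM), a mean of 969 ± 147 CPM at rank 99. The values of these 3 genes did not overlap: both values of Mir429 lay above both of Mir200c, and both of those above both of Mir200b.

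The other seed group was much lower. Mir141 had 1233 counts in replicate 1 (208 CPM) and 1511 in replicate 2 (252 CPM), a mean of 230 ± 31 CPM at rank 147. Mir200a had 1170 counts in replicate 1 (197 CPM) and 1139 in replicate 2 (190 CPM), a mean of 194 ± 5 CPM at rank 155. The order of this pair was clear in replicate 2 and not in replicate 1. In replicate 1 the exact 95% intervals overlapped, 197 to 220 CPM for Mir141 and 186 to 209 CPM for Mir200a, while in replicate 2 they were 239 to 265 and 179 to 201 CPM. Across the 7 genes the highest mean was 43.3-fold the lowest.

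**Figure D2:**
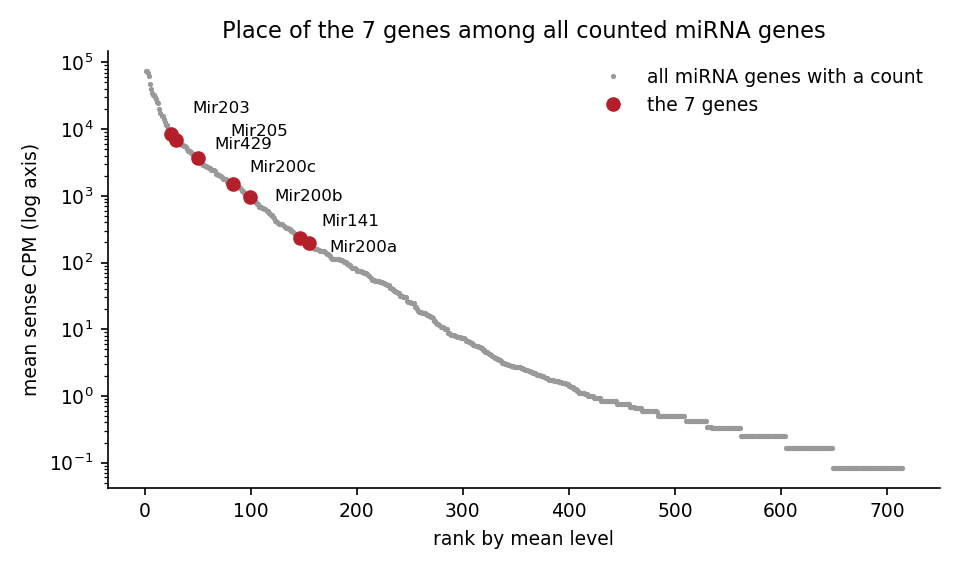
Mean sense CPM (log axis) against rank for all miRNA genes with a count, with the 7 genes in red. They span ranks 25 (Mir203) to 155 (Mir200a), on the upper part of the curve.

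By mean CPM the genes closest to Mir203 were Mir106b above (8702 ± 441 CPM) and Mir127 below (8253 ± 224 CPM), at log2 differences of 0.05 and -0.02 from it. Around Mir205 lay Mir181c (6926 ± 550 CPM) and Mir143 (6719 ± 567 CPM). Around Mir429 lay Mir181d (3751 ± 344 CPM) and Mir532 (3270 ± 236 CPM). Mir200c stood between Mir107 (1525 ± 0.2 CPM) and Mir337 (1469 ± 66 CPM), and Mir200b between Mir341 (990.0 ± 7 CPM) and Mir196a-2 (964 ± 122 CPM). Mir141 stood between Mir92b (255 ± 16 CPM) and Mir1306 (228 ± 12 CPM), and Mir200a between Mir667 (199 ± 14 CPM) and Mir496a (181 ± 13 CPM). The likeness here is of level alone, over 2 libraries, and in each case the ranges of both genes over the libraries overlapped, so these orders are not resolved.

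Grouped by seed, the family was unequal. In replicate 1 the group with AAUACUG (Mir200b, Mir200c and Mir429) had 5581 CPM and the group with AACACUG (Mir200a and Mir141) 405 CPM. In replicate 2 these sums were 6771 CPM for AAUACUG and 441 CPM for AACACUG. The log2 ratio of AAUACUG over AACACUG was 3.78 in replicate 1 and 3.94 in replicate 2, a mean of 3.86 ± 0.11 (SD, n = 2), or 14.5-fold. Both clusters carry a gene of each group, and in both the AACACUG gene was the lower. On chromosome 6, Mir200c was 6.44-fold above Mir141 in replicate 1 and 6.42-fold in replicate 2. On chromosome 4, Mir200b was 4.38-fold above Mir200a in replicate 1 and 5.65-fold in replicate 2, and Mir429 was 17.1-fold and 21.5-fold above it.

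Grouped by locus, the Mir200b cluster on chromosome 4 summed to 4440 and 5344 CPM in replicates 1 and 2, against 1547 CPM and 1869 CPM for the Mir200c cluster on chromosome 6. The log2 ratio of the Mir200b cluster over the Mir200c cluster was 1.52 in each library, with a mean of 1.52 ± 0.004 (SD, n = 2), or 2.87-fold. Most counts of the chromosome 4 cluster came from Mir429, which made up 76.1% of its cluster in replicate 1 and 76.4% in replicate 2. With Mir429 and Mir200c, the most abundant member of each, left out, the log2 ratio was 2.34, and with each gene weighed equally it was 0.61. The level did not follow the order along the cluster. From 5′ to 3′ the mean CPM was 969 for Mir200b, 194 for Mir200a and 3730 for Mir429, so the middle hairpin was the lowest and the last the highest.

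**Figure D3:**
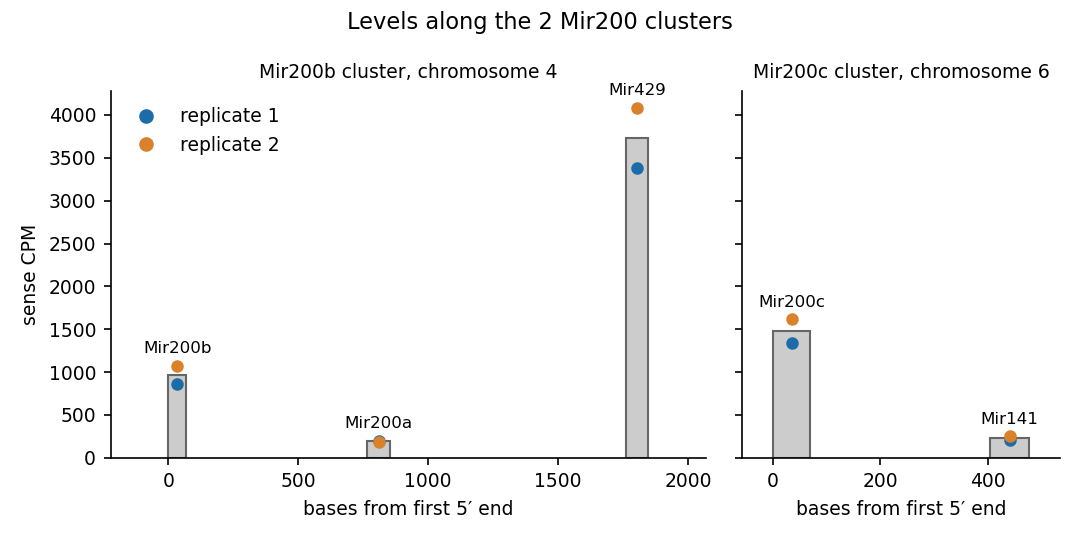
Sense CPM along the clusters on chromosome 4 (left) and chromosome 6 (right), with each hairpin drawn to its panel’s own scale at its distance from the 5′ end of the first one. Bars are means and points the 2 libraries: Mir429, the last of its cluster, averages 3730 CPM and Mir200a, between its neighbours, 194 CPM.

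The hairpins of the chromosome 4 cluster are shown because their products differ most in level while lying within 1846 bases. They are from RefSeq, 5′ to 3′, with the 3p arm in capitals.
Mir200b: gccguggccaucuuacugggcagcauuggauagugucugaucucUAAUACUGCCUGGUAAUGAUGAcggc
Mir200a: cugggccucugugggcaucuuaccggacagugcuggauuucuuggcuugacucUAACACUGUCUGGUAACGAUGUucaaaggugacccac
Mir429: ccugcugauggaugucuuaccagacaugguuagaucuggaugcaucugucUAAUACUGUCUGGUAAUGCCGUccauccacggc

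The skin pair together exceeded the family. In replicate 1, Mir203 and Mir205 summed to 14241 CPM and the 5 Mir200 genes to 5987 CPM. In replicate 2 the pair summed to 16371 CPM and the family to 7213 CPM. The log2 ratio of the pair over the family was 1.25 in replicate 1 and 1.18 in replicate 2, a mean of 1.22 ± 0.05 (SD, n = 2), or 2.32-fold. With each gene weighed equally it was 3.34.

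Most of these genes were lower in replicate 1, by less than 2-fold. In a two-sided exact binomial test over 444 genes with Benjamini-Hochberg adjustment at 0.05, 6 of the 7 genes passed and all 6 were lower in replicate 1, while 40.3% of all tested genes passed, 18.2% lower and 22.1% higher in replicate 1. Where a log2 ratio of size 1 or more was also required, 0 of the 7 were called, against 3.38% of all tested genes. At an unadjusted p under 0.05 the count was 6 of 7, against 45.3% of all tested genes. The test sets 1 library against the other with no error but that of counting, so passing depends on depth and on the level of a gene. The median of mean CPM was 1478 over the 7 genes and 106 over the 372 detected genes. The shares over all tested genes are therefore not those of genes at a like level. Among genes with a mean of at least 100 CPM the largest absolute log2 ratio was 0.73, so none was called with the minimum ratio. The median log2 ratio of replicate 1 over replicate 2 was -0.27 over the 7 genes and 0.02 over the 444 tested.

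The single ratios were close to each other. The log2 ratio of replicate 1 over replicate 2 was -0.27 for Mir205 (exact 95% interval -0.29 to -0.25), for Mir429 (-0.30 to -0.25), for Mir200c (-0.32 to -0.23) and for Mir141 (-0.38 to -0.17). These 4 genes, on chromosomes 1, 4 and 6, fell between -0.275 and -0.272. Of the 190 genes with a mean of at least 100 CPM, 5 fell in that range, these 4 and Mir329, a range set after the values were seen. Mir200b lay slightly lower, at -0.31 (-0.36 to -0.26). Mir203 moved less, at -0.14 (-0.16 to -0.13), an interval apart from those of Mir205, Mir200b, Mir429, Mir200c and Mir141. Among the 190 genes, 9 had a log2 ratio as low as that of Mir205 or lower, and 5 of these 9 were Mir200b, Mir141, Mir429, Mir200c and Mir205. The other 4, named after their values were seen, were Mir137, Mir34a, Mirlet7d and Mir329.

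Mir200a was the exception, with a log2 ratio of 0.06 (exact 95% interval -0.06 to 0.18) and an adjusted p of 0.53 in the exact binomial test. Its interval lay above those of its cluster neighbours Mir200b and Mir429. Its share of the counts of the chromosome 4 cluster was 4.45% in replicate 1 and 3.55% in replicate 2. For the 6 others, Benjamini-Hochberg adjusted p-values of the exact binomial test ran from 3.25e-06 for Mir141 to 8.95e-159 for Mir205.

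**Figure D4:**
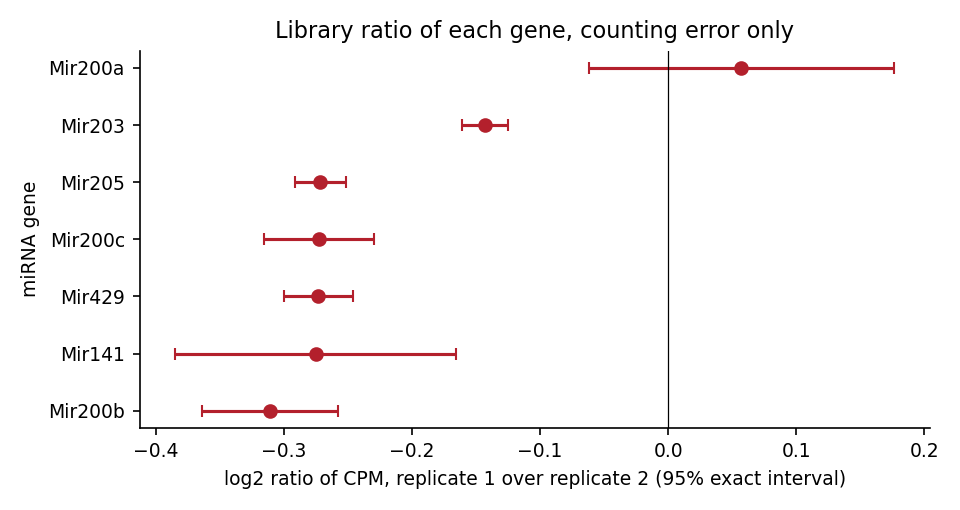
Log2 ratio of CPM in replicate 1 over replicate 2 for each gene, with exact 95% intervals for counting error. Mir200b, Mir141, Mir429, Mir200c and Mir205 sit between -0.31 and -0.27, Mir203 at -0.14 and Mir200a at 0.06, the only interval that includes 0.

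Depth was not the limit for most of these values. Counting error alone would give a coefficient of variation of 0.45% for Mir203, 0.49% for Mir205 and 2.70% for Mir141, while the observed values were 7.02%, 13.3% and 13.4%. For Mir200a the observed 2.80% was close to the 2.94% of counting error. For the other 6 genes the SD between libraries was 4.98 to 27.0 times that of counting. Over the 372 detected genes the biological coefficient of variation, from edgeR's common dispersion, was 0.111. Over the 190 genes of at least 100 CPM the median absolute log2 ratio was 0.13, and 24 to 34 of them had an absolute ratio larger than those of Mir200b, Mir141, Mir429, Mir200c and Mir205.

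**Figure D5:**
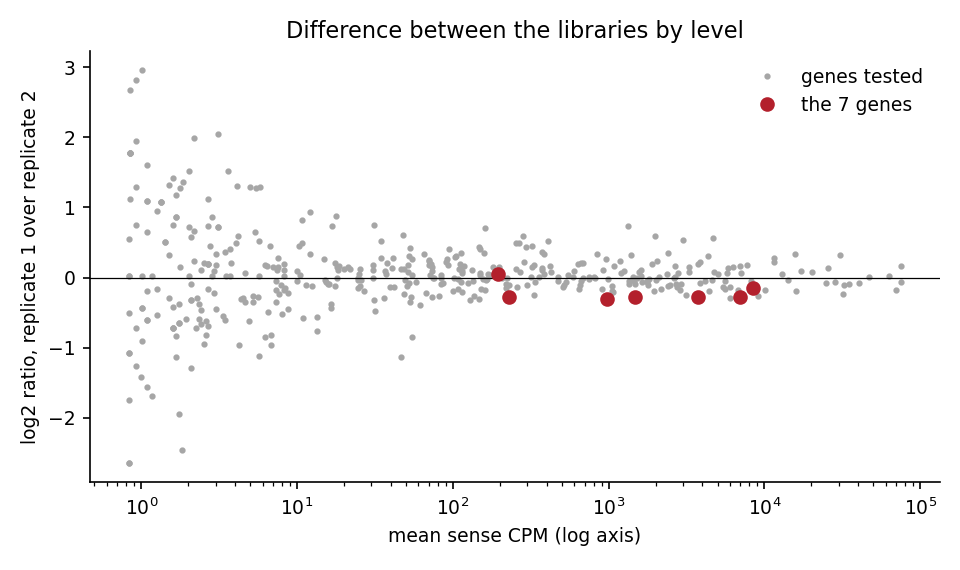
Log2 ratio of replicate 1 over replicate 2 against mean sense CPM (log axis) for the 444 genes tested, with the 7 genes in red. Of the red points, 6 lie below 0, the lowest, Mir200b, at -0.31.

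Other genes known from epithelium and skin differed between the libraries in both directions. Of 13 listed genes, all 13 were detected, and their sum was 11896 CPM in replicate 1 and 11289 CPM in replicate 2. By adjusted p in the exact binomial test 2 were lower and 4 higher in replicate 1, against 18.2% lower and 22.1% higher of all tested genes, so the share of the list that passed was near that of all genes. The median log2 ratio was 0.02. Mir21a, a gene also active outside epithelium, was the most abundant at 4713 ± 199 CPM. The sensory and epithelial cluster of Mir183, Mir96 and Mir182, at 2154, 801 and 2043 CPM, had log2 ratios of -0.17, 0.01 and 0.23. Mir34a was lower in replicate 1, at -0.30, and Mir375, a gene of endocrine and secretory epithelium, higher at 0.33. These single genes other than Mir21a were named after their values were seen.

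Markers of the other limb tissues were present in both libraries. The limb genes Mir196b, of the Hox clusters, and Mir140, of cartilage, reached 75238 ± 6154 and 46627 ± 100 CPM, so the labelled tissue carries its known genes. Summed levels in replicates 1 and 2 were 48690 and 48605 CPM for cartilage (2 of 2 genes detected), 124181 and 116122 CPM for mesenchyme (6 of 6) and 27255 and 26865 CPM for endothelium and vessel wall (3 of 3, led by Mir126a at 20233 ± 844 CPM). Skeletal muscle (4 of 7 counted genes detected, led by Mir206 at 3841 ± 141 CPM, with Mir133a-2 at 0) had 3991 and 4206 CPM, and blood (5 of 5, led by Mir223 at 318 ± 2 CPM) 789 and 675 CPM. Nerve (4 of 8, led by Mir128-1 at 167 ± 5 CPM) had 404 and 421 CPM, with Mir9-2, Mir124a-1, Mir124a-2 and Mir124a-3 at 0. Mir133a-2, Mir9-2 and the Mir124a genes have copies that make the same miRNA, whose reads would map to several places, so these zeros and the muscle and nerve sums are uncertain. The lists of mesenchyme and of gut, liver and kidney epithelium also hold numbered copies, as does Mir128-1. Their sums and the lead of Mir128-1 are uncertain in the same way. Mir1a-2 of the muscle list, Mir142 of the blood list and Mir9-1 of the nerve list were not counted as genes here. Over Mir142b there were 0 sense counts but 2337 antisense counts in replicate 1 and 2543 in replicate 2. Whether these reads come from Mir142 was not tested, so the blood sum and the lead of Mir223 are uncertain too. Genes of gut, liver and kidney epithelium (4 of 7, led by Mir192 at 83.9 ± 1.4 CPM) had 201 and 208 CPM, against 20227 and 23584 CPM for the 7 genes described here. The log2 ratios of replicate 1 over replicate 2 of these sums ran from -0.08 for muscle to 0.23 for blood, and that of the 7 genes was -0.22. Whether a different share of tissues in the libraries had a part in the ratios above was not tested.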

How the data were processed

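MicroRNA libraries from 2 samples of mouse limb at embryonic day 13.5 were analysed as 1 group. Read counts per miRNA gene were deposited by the authors as whole numbers in 3 columns (either strand, sense, antisense) after lines for reads in no gene, a layout read from the files since no header names the columns. Reads were placed on mm10 per the labels and counted against GENCODE M4 per the deposited notes; the aligner is not given in the sources used here. Lines naming no gene were left out: 17.2% and 18.6% of reads were unmapped, 30.8% and 29.5% multimapping and 4.24% and 4.48% in no gene on the sense strand, in replicates 1 and 2.

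Symbols, positions and hosts came from GENCODE M21 (GRCm38), by identifier without version, for 1894 of 1973 genes. Sequences came from RefSeq (GRCm38.p6). CPM was computed from the deposited sense counts, scaled to their total in genes. Shares and CPM carry exact Clopper-Pearson 95% intervals, covering counting error only. The libraries were compared by a two-sided exact binomial test over genes with at least 10 counts summed, with Benjamini-Hochberg adjustment at 0.05, adding 0.5 counts in log2 ratios. The biological coefficient of variation came from edgeR 4.0.16. Scipy 1.17.1 and, for size factors, DESeq2 1.42.0 were used. The binomial test was tested on simulated data. Named genes were the members, the next gene above and below each by mean CPM, genes sharing a main-arm seed or lying opposite a member, and the most abundant gene of each list. Mir183, Mir96, Mir182, Mir34a, Mir375, Mir137, Mirlet7d and Mir329 were named outside this rule, after their values were seen. So were Mir142b and the listed genes at 0 counts (Mir133a-2, Mir9-2, Mir124a-1, Mir124a-2 and Mir124a-3). Listed genes that were not counted are named as well. Members and lists were chosen with earlier results of these data known. Alternatives changed the denominator, strand, count minimum, pseudocount, minimum ratio, library-size estimate and weighing of genes, or left out a library.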

Additional observations from a re-analysis of the deposited data

Results flagged for a closer look

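Antisense reads were found over Mir203, outside the sense counts used above: 64 in replicate 1 and 78 in replicate 2, above the limit of 3 counts that a count of 0 allows. These are 0.135% and 0.147% of all counts at the locus, or 10.8 CPM in replicate 1 on the scale of the sense counts. Each of the other 6 genes had 0 antisense counts in both libraries. RefSeq lists miR-203b on the other strand at this place as Gm51289, which is not counted as its own gene here, with both arms opposite the Mir203 hairpin (minus strand, GRCm38.p6).
mmu-miR-203b-5p, chr12:112130927-112130946: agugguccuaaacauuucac
mmu-miR-203b-3p, chr12:112130887-112130908: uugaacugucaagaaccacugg
Which arm or RNA the antisense reads come from was not tested.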

How the results depend on the processing

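No log2 ratio or median above changed sign under an alternative, while a share cannot be negative and could change only in size. Among the shares, ratios and medians, 7 values moved beyond the replicate spread, all by how genes or reads were weighed. The share held by the 7 genes was 1.04% of all reads and 4.38% without the 10 most abundant genes. With each gene weighed equally, by the mean of log2(CPM + 1), the log2 ratio was 0.61 for the Mir200b cluster over the Mir200c cluster, 3.04 for AAUACUG over AACACUG and 3.34 for Mir203 and Mir205 over the family. Without the most abundant member of each, it was 2.34 for the clusters and 3.65 for the seed groups. Leaving out a library gave 2.02% to 2.36% for the share, but with 2 libraries this cannot move a mean by more than its SD and says nothing of stability. Counting both strands could not move ratios within the Mir200 family, which had no antisense counts. The count of genes called stayed 6 by adjusted p and 0 with the minimum ratio under each alternative, and the median log2 ratio was -0.29 with edgeR TMM or DESeq2 size factors. Some alternatives could not change these counts. The pseudocount does not enter the test. The ratio of largest size among the 7 genes was -0.31, short of the alternative minimum of 0.5. Among the levels of single genes, counting both strands together moved the mean of Mir200a from 194 to 187 CPM, also beyond its replicate spread. Mir200a had 0 antisense counts, so only the total it was scaled to changed. Weighing genes equally gives no value for the share, and leaving out a library none for the test between libraries. With 1 group, there is no pair of conditions to block by replicate.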

Other observations

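The other arms of the hairpins also share seeds in part. MiR-200a-5p and miR-200b-5p both carry AUCUUAC, miR-141-5p carries AUCUUCC, miR-200c-5p GUCUUAC and miR-429-5p UCUUACC. As counts are per hairpin, the part of each arm in the levels above is not known.

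The median GC content of the hairpins was 50% over the 7 genes. It was 49.4% over 159 other genes of at least 100 CPM with a RefSeq hairpin. The ranges were 48.7% to 55.1% and 29.1% to 69.1%, and a range widens with the number of genes. Mir200a and Mir429, which differed most in level within 1 cluster, had 52.2% and 49.4%.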
